A study of Mus musculus with 29 samples.

Results

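MHC class II genes were examined in hematopoietic stem cells (HSCs) of young and old mice, wild type (WT) or carrying a Gadd45b knockout (KO). The 8 members were named by symbol out of 55376 gene symbols, with earlier results of these data known: Cd74, H2-Aa, H2-Ab1, H2-Eb1, H2-DMa, H2-DMb1, H2-DMb2 and Ciita. All 8 were counted in every library and all 8 passed the filter on low counts. The RNA-seq libraries fell into 4 groups, young WT (YWT, n = 4), old WT (OWT, n = 4), young KO (YKO, n = 4) and old KO (OKO, n = 7), with no further treatment. The KO groups carry a germline knockout of Gadd45b, a stress-induced gene studied for its part in DNA demethylation. The labels give age only as young or old, and nothing says whether a library came from a single mouse or a pool, so p-values measure the spread between these libraries. The study describes HSCs by the surface phenotype Lin- c-Kit+ Sca1+ CD34- Flk2- CD150+, with the B cell antigen B220 and the T cell antigen CD3 among the lineage markers that are gated out.

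MHC class II molecules are cell surface heterodimers of an α and a β chain that present peptides from endocytosed proteins to CD4+ T cells. The chains assemble with the invariant chain, which guides them to endosomes and blocks the groove, and the H2-DM heterodimer later helps to exchange its last fragment for peptide, a step restrained by H2-O. B cells, dendritic cells and macrophages carry the most class II, and hematopoietic stem and progenitor cells also transcribe these genes. Transcription depends on the class II transactivator CIITA, which binds no DNA itself but is recruited by RFX, CREB and NF-Y proteins bound to the X and Y boxes of class II promoters.

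The promoters are shown first as a description, among them those of H2-DMb1 and H2-DMb2, which lie next to each other. RefSeq promoter windows of 300 bases (250 before and 50 after the gene start, GRCm38.p6) were at hand for H2-Aa, H2-Eb1, H2-DMa, H2-DMb1 and H2-DMb2, and also for H2-Oa, H2-Ob and H2-Eb2; those of Cd74, H2-Ab1, Ciita and H2-Ea-ps were not used here. Capitals mark the Y box letters ATTGG and, in H2-Eb1, a short form of the X box, GNNACNGAT. The H2-Eb1 stretch lies at chr17:34305762-34305822 on the plus strand and the H2-Aa stretch at chr17:34287857-34287917 on the minus strand.
H2-Eb1: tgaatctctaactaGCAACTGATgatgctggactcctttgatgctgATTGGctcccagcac
H2-Aa: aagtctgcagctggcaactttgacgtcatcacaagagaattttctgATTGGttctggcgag

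Both stretches were searched for each single box on both strands, as was every window. The Y box was present in 37.4% of 32851 RefSeq promoter windows and the short X box in 7.82%. Pairs, a short X box followed 15 to 40 bases later by a Y box, were sought on the strand of the gene alone. Such a pair was found in 0.0913%, that is 30 windows. H2-Eb1, H2-DMb1 and H2-Eb2 were among those 30. H2-Aa, H2-DMb2, H2-Oa and H2-Ob held a Y box without such a pair, and H2-DMa held a Y box in 1 of its 2 windows. A longer, 14-base form of the X box, found in 0.289% of windows, matched H2-DMb1 alone among the class II windows searched.

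For the H2-DMb pair, 30 bases around this X box are given, with capitals at the bases that differ between the genes. They lie at chr17:34153085-34153114 for H2-DMb1, inside the first exon of GENCODE M21, and at chr17:34145114-34145143 for H2-DMb2, both on the plus strand and at the same distance from the Y box.
H2-DMb1: gaggtttacctaGtaacTgatgatgctagg
H2-DMb2: gaggtttacctaTtaacCgatgatgctagg
Within the 14 bases of the X box, counted from 1 at its 5′ end with the H2-DMb1 base first, the substitutions are G5T and T10C. These letters are a description of the windows, and binding was not measured. Of the genes with an X and Y pair, H2-Eb1 and H2-Eb2 were lower in OKO than in YKO below, and H2-DMb1 was not. H2-Aa, H2-DMb2, H2-Oa and H2-Ob, without such a pair, were lower too. H2-DMa, also without such a pair, did not pass the threshold used below. Pairs were matched by the letters given, so an X box with other letters would not be counted. The part of these letters in the expression results was not tested.

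In GENCODE M21 (mm10), 6 of the 8 genes lie in 1 class II region of chromosome 17: H2-DMa at chr17:34119541-34139101, H2-DMb2 at chr17:34143307-34151555, H2-DMb1 at chr17:34153072-34160230, H2-Ab1 at chr17:34257689-34269419, H2-Aa at chr17:34282744-34287823 and H2-Eb1 at chr17:34305867-34316674. Ciita is on chromosome 16, at chr16:10480059-10528418, and Cd74 is on chromosome 18. Each value is the sum of reads over the exons of the gene.

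Across the series, the libraries held 22197555 to 77970627 counted reads, with a median of 57562473. All values below are CPM, read counts divided by library size after TMM scaling, which is meant to correct for differences in library composition. The TMM factors ran from 0.692 in YWT2 to 1.83 in OKO1, with OKO2 at 1.24 and OKO3 at 1.41. HSC markers such as Kit, Procr and Mecom were counted in all libraries, with a summed level over 10 markers of 2315 to 4861 CPM. B cell markers were counted too: leaving out Ighm, the immunoglobulin heavy chain, the 9 others summed to 232 to 689 CPM in YWT, 70.1 to 207 in OWT, 209 to 1587 in YKO and 32.7 to 195 in OKO. Gadd45b was at 10.5 ± 4.69 CPM in YWT (SD, n = 4) and 9.53 ± 4.64 in the libraries labelled YKO (n = 4), with overlapping values, and at 11.5 ± 2.63 in OWT (n = 4) and 4.45 ± 1.39 in OKO (n = 7). Gadd45b counts therefore gave no check of the YKO label, and which exons the allele lacks is not given in the sources used here; genotypes are taken from the labels. OWT and OKO4 to OKO7 have IB15 in their titles and the other libraries do not, so in WT age and library series cannot be told apart. Finally, the labels give female for all 19 libraries, but 7 of them held at least 2764 reads of the Y-linked genes Kdm5d and Ddx3y, against at most 2 in the other 12.

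The first question was how much class II RNA the HSCs contained. Per kb of exon, Cd74, the invariant chain, was highest in YWT at 902 ± 841 CPM per kb (SD, n = 4), a mean carried by YWT2 at 2148 CPM per kb, with the other 3 libraries at 388, 674 and 398. H2-Ab1, the β chain of I-A, followed at 148 ± 49.9 CPM per kb. H2-Eb1, the β chain of I-E, was at 82.3 ± 25.0 CPM per kb and H2-Aa, the α chain of I-A, at 58.4 ± 15.1, with H2-Eb1 the higher in every YWT library. This order rests on the exon lengths used, 1944 bases for H2-Eb1 and 3798 for H2-Aa. Without division by length H2-Aa was the higher, at a mean of 222 CPM against 160 CPM in YWT. H2-DMa, the α chain of the peptide exchange factor, and H2-DMb1, its β chain, were next to each other at 41.0 ± 4.44 and 40.8 ± 4.38 CPM per kb. H2-DMb2, the second H2-DM β chain gene, stood lower at 20.7 ± 7.64 CPM per kb, and Ciita was lowest at 2.46 ± 0.523. In OKO (n = 7), Cd74 was again first at 375 ± 244 CPM per kb, while H2-DMb2 was at 5.86 ± 5.52 and H2-DMb1 at 38.8 ± 10.01. The lowest read count of any member in OKO was 283, for H2-DMb2, so depth did not limit detection.

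**Figure D1:**
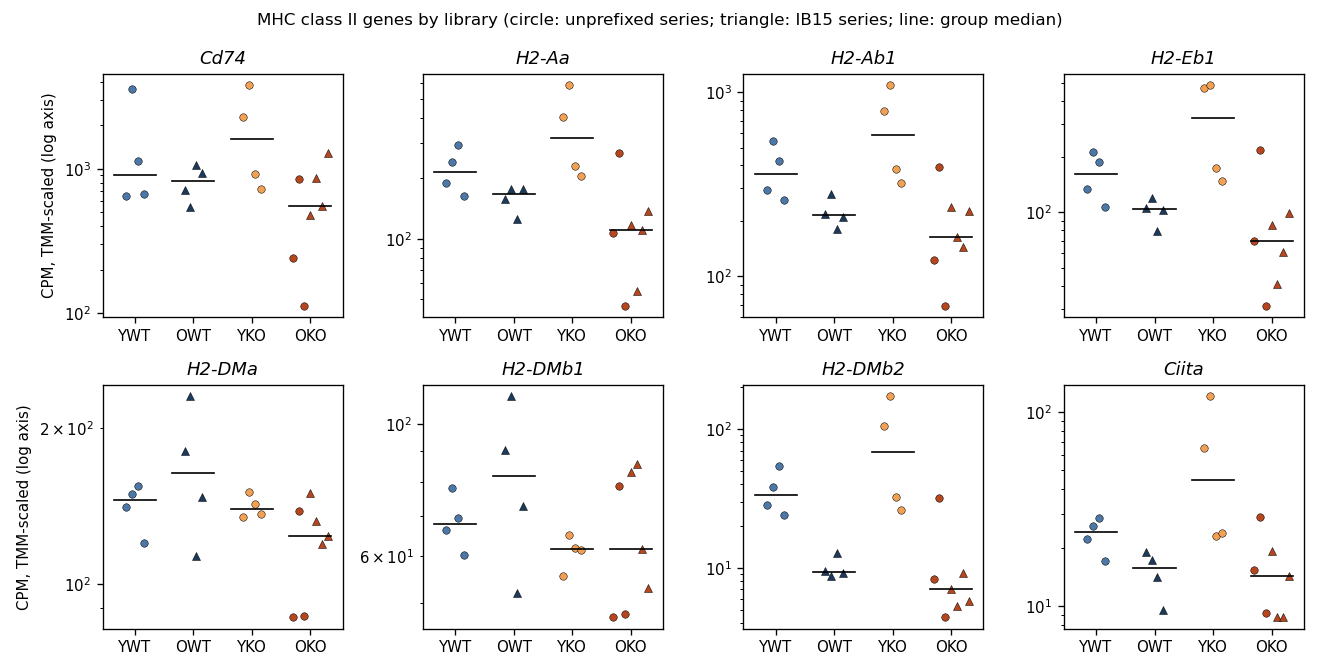
Each panel plots 1 gene, with TMM-scaled CPM on a log axis against the 4 groups; points are libraries, circles from the unprefixed series and triangles from the IB15 series, and lines are group medians. YKO1 and YKO2 stand above the other 2 YKO libraries for every gene but H2-DMa and H2-DMb1, for which the 4 YKO libraries lie together.

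Among KO libraries, class II RNA was lower in the old. Of the 8 members, 5 passed the threshold in OKO vs. YKO (adjusted p under 0.05 and fold over 1.5), and all 5 fell: H2-Aa, H2-Ab1, H2-Eb1, H2-DMb2 and Ciita. Among all 33690 genes tested, 1.29% passed in this comparison and 0.692% passed in the lower direction. The median log2 fold change was -1.68 over the 8 members and 0.23 over all genes. Cd74, H2-DMa and H2-DMb1 did not pass. The number of calls depended on YKO1 and YKO2: with 1 of these libraries left out a single member passed, H2-DMb2 (0.284% of all genes passed without YKO1 and 0.635% without YKO2). Without YKO1 the log2 fold changes of the 4 that no longer passed were -1.47 for H2-Aa, -1.60 for H2-Ab1, -1.61 for H2-Eb1 and -1.87 for Ciita (edgeR adjusted p 0.0548 to 0.129), and without YKO2 they were -1.20, -1.34, -1.58 and -1.28 (edgeR adjusted p 0.0615 to 0.0916). With both left out none of the 8 passed, while 0.0542% of all genes did, and 7 of the 8 fold changes were below 0, H2-DMb2 at -1.49 (edgeR adjusted p 0.290).

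The classical chains moved together. H2-Aa was at 404, 588, 230 and 207 CPM in YKO1 to YKO4, and in OKO its lowest, median and highest values were 46.1, 111 and 268 CPM. YKO1 and YKO2 were above every other library of the series, while OKO2, the highest OKO library, lay above YKO3 and YKO4, so that the groups overlapped. The fitted log2 fold change was -1.57 (SE 0.36), 2.97-fold lower, with an adjusted p of 0.0292 (edgeR quasi-likelihood test, Benjamini-Hochberg).

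H2-Ab1 was at 787, 1100, 382 and 321 CPM in YKO1 to YKO4 and at 68.8, 163 and 394 CPM (lowest, median, highest) in OKO, again with OKO2 as the highest. It fell 3.34-fold (log2 fold change -1.74, SE 0.37, edgeR adjusted p 0.0186). H2-Eb1 was at 469, 489, 174 and 148 CPM in YKO1 to YKO4 and at 31.2, 70.3 and 216 CPM in OKO. Only OKO2 among the OKO libraries reached the YKO range. It fell 3.71-fold (log2 fold change -1.89, SE 0.40, edgeR adjusted p 0.0190).

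Cd74 varied widely within groups. It was at 2306, 3838, 923 and 725 CPM in YKO1 to YKO4 and at 112, 557 and 1299 CPM in OKO, with OKO7, OKO5 and OKO2 inside the YKO range. The log2 fold change of -1.63 (SE 0.55, 95% interval -2.76 to -0.50) had an edgeR adjusted p of 0.142, so that a difference of the size seen for the chains lies within the interval. In fits with the library series as a covariate, or with the unprefixed OKO libraries alone, Cd74 passed (log2 fold change -2.28, edgeR adjusted p 0.0292, and -2.22, edgeR adjusted p 0.0408), but with the unprefixed OKO libraries alone H2-Aa did not (log2 fold change -1.29, edgeR adjusted p 0.0512). Of all genes, 19.1% passed with the library series as a covariate and 17.9% with the unprefixed OKO libraries alone.

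Ciita was at 65.0, 120, 23.1 and 23.7 CPM in YKO1 to YKO4 and at 8.78, 14.3 and 28.7 CPM in OKO. YKO1 and YKO2 again stood above all 17 other libraries, and OKO2 was the next highest. It fell 3.89-fold (log2 fold change -1.96, SE 0.38, edgeR adjusted p 0.0115).

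The H2-DM genes split. H2-DMb2 was at 105, 173, 32.5 and 26.0 CPM in YKO1 to YKO4 and at 4.39, 7.02 and 31.8 CPM in OKO, with 6 of the 7 OKO libraries below every YKO library and OKO2 between YKO3 and YKO4. It had the largest change among the members, 8.22-fold lower (log2 fold change -3.04, SE 0.49, edgeR adjusted p 0.00228). H2-DMa was at 135, 150, 143 and 136 CPM in YKO1 to YKO4 and at 86.2, 124 and 150 CPM in OKO, with a log2 fold change of -0.24 (95% interval -0.65 to 0.17, edgeR unadjusted p 0.237).

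H2-DMb1 was at 55.6, 65.0, 61.9 and 61.5 CPM in YKO1 to YKO4 and at 47.3, 61.6 and 85.7 CPM in OKO. For this gene the OKO libraries lay on both sides of the YKO libraries, and the log2 fold change of 0.10 (95% interval -0.34 to 0.53, edgeR adjusted p 0.833) lay apart from that of H2-DMb2, whose 95% interval was -4.05 to -2.02. H2-DMa overlaps Brd2 on the opposite strand over 3094 bases of the annotation and Ciita overlaps Dexi over 25888; the library kit does not mark strand, so exon reads shared there cannot be assigned.

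**Figure D2:**
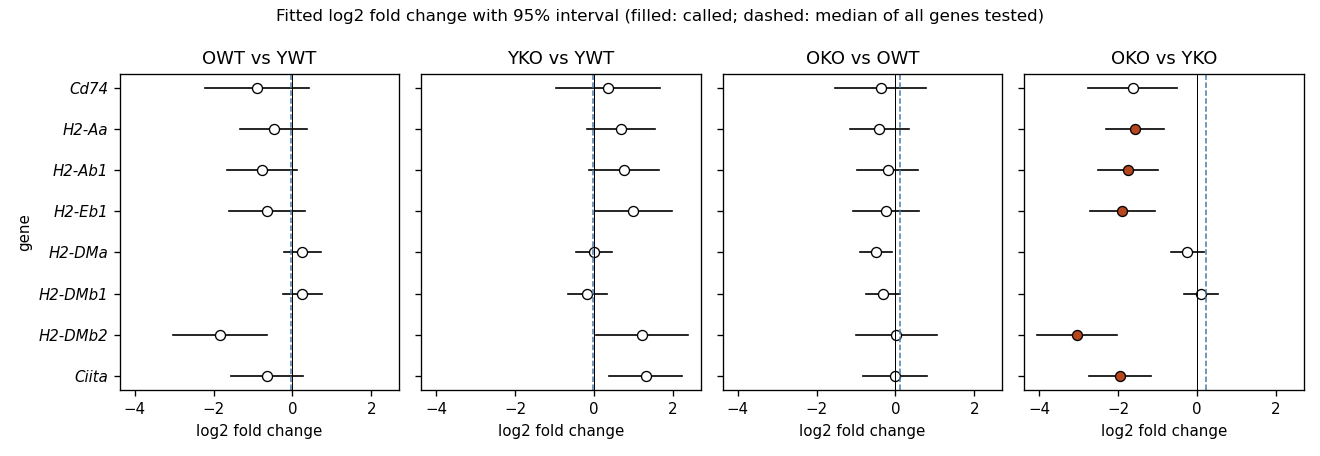
Fitted log2 fold changes (x axis) of the 8 members (y axis) in 4 comparisons, with 95% intervals as bars; filled points passed the threshold and the dashed line is the median of all genes tested. In OKO vs. YKO 5 points are filled, H2-DMb2 at -3.04 being the lowest, and no point is filled elsewhere.

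YKO1 and YKO2 also had the highest sums of the 9 B cell markers other than Ighm, while Ighm was highest in YWT2. Cd22, an inhibitory receptor of B cells, was at 129 CPM in YKO1 and 204 CPM in YKO2, against at most 32.0 CPM in the other 17 libraries. Of the 10 B cell markers, 7 fell in OKO vs. YKO, among them Cd22 (log2 fold change -6.18, edgeR adjusted p 4.07e-05), and the other 3, Cd79a, Cd79b and Ighm, did not pass. Of the 6 T cell markers 3 fell, with a summed level of 13.2 to 103 CPM in YKO and 4.95 to 20.6 CPM in OKO. Of the 10 macrophage markers 2 fell, Csf1r among them, with sums of 171 to 231 CPM in YKO and 33.7 to 292 CPM in OKO. Of the 9 dendritic cell markers Ccr7 fell and Clec9a rose, with sums of 52.7 to 85.7 CPM in YKO and 14.5 to 45.4 CPM in OKO, and none of the 10 HSC markers passed. At least 5 of the 6 T cell markers, 8 of the 9 dendritic cell markers and all 10 macrophage and all 10 B cell markers were counted in each library. In bulk RNA, fewer cells of a type and less RNA per cell cannot be told apart, and the part of these markers in the class II result was not tested. YKO1 and YKO2 further differed from YKO3 and YKO4 in sex-linked genes, with 3423 and 7882 reads of Xist against 85 and 68, so that within YKO this difference and the class II level cannot be told apart.

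Class II RNA was also counted where B cell RNA was scarce. In OKO1 to OKO3, Cd22 was at 1.49, 0.558 and 0.465 CPM and Cd79a, a part of the B cell receptor, at 1.13, 1.64 and 1.87 CPM. H2-Aa in the same libraries was at 107, 268 and 46.1 CPM. OKO2 had more H2-Aa than YKO3 or YKO4, whose Cd22 was at 31.2 and 16.8 CPM. The part of B cells in these levels was not tested. Among OKO libraries, OKO2 had the highest sum of dendritic cell markers, 45.4 CPM, the next being OKO7 at 31.9 CPM. Its macrophage markers summed to 48.9 CPM, within an OKO range of 33.7 to 292 CPM. The part of such cells in its class II level was not tested. OKO2 also had the highest level of Irf1, an interferon-induced factor, among the 19 libraries, at 341 CPM, but OKO4 was close at 325 CPM, with the 3 chains summing to 439 CPM in OKO4 and 879 CPM in OKO2. Irf1 was singled out in OKO2 after its values had been seen.

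**Figure D3:**
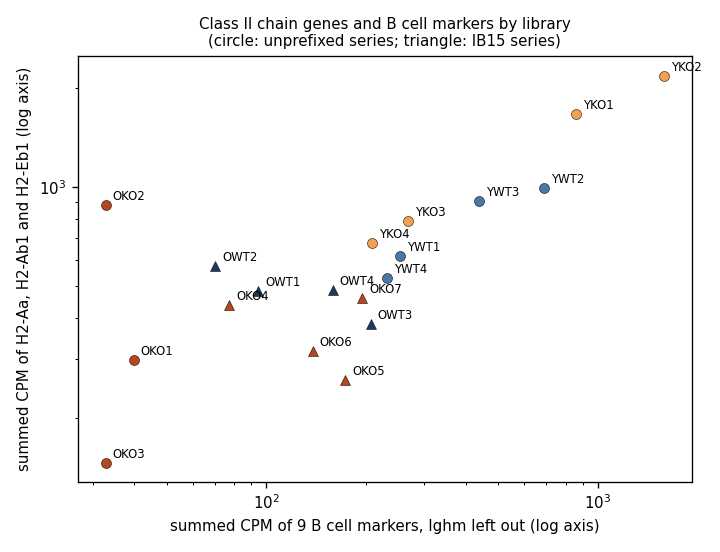
Summed CPM of H2-Aa, H2-Ab1 and H2-Eb1 (y axis, log) against summed CPM of 9 B cell markers without Ighm (x axis, log), 1 point per library, colored by group, with circles for the unprefixed series and triangles for the IB15 series. YKO1 and YKO2 are at the upper right, and OKO1 to OKO3 share the lowest B cell sums, 32.7 CPM at the least, but range from 146 to 879 CPM in the chains.

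In WT mice, none of the 8 members passed in OWT vs. YWT, where 0.00297% of all genes did; at an unadjusted p under 0.05 there was 1 member, beside 4.38% of all genes, and DESeq2 gave 0 members as well. H2-Aa was at 189, 242, 292 and 164 CPM in YWT1 to YWT4 and at 158, 177, 125 and 177 CPM in OWT1 to OWT4, which overlapped, and its log2 fold change was -0.48 (95% interval -1.33 to 0.38). H2-Ab1 was at 294, 540, 425 and 261 CPM in YWT and at 219, 281, 181 and 209 CPM in OWT, with a log2 fold change of -0.77 (95% interval -1.66 to 0.11). H2-Eb1 was at 134, 213, 187 and 106 CPM in YWT and at 106, 120, 79.5 and 103 CPM in OWT, with a log2 fold change of -0.65 (95% interval -1.61 to 0.31). The old libraries of these chains lay at or under the lower part of the young range, within intervals that include 0.

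Cd74 was at 651, 3606, 1131 and 668 CPM in YWT and at 716, 540, 1069 and 941 CPM in OWT. YWT2, the highest, also had Ighm at 164540 CPM, the most of any library, and without YWT2 the log2 fold change of Cd74 moved from -0.89 to 0.01. Ciita was at 22.2, 25.8, 28.6 and 17.1 CPM in YWT and at 18.96, 17.3, 14.1 and 9.62 CPM in OWT, overlapping, with a log2 fold change of -0.64 (95% interval -1.56 to 0.27). H2-DMa was at 141, 149, 155 and 120 CPM in YWT and at 181, 231, 113 and 147 CPM in OWT. H2-DMb1 was at 66.4, 78.01, 69.5 and 60.3 CPM in YWT and at 90.6, 111, 52.1 and 72.8 CPM in OWT. For H2-DMa and H2-DMb1 the OWT libraries spread to both sides of YWT, with log2 fold changes of 0.25 for each.

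H2-DMb2 was the member with the largest difference in WT. It was at 28.3, 38.2, 54.1 and 24.0 CPM in YWT and at 9.55, 8.72, 12.8 and 9.15 CPM in OWT, so that every OWT library was below every YWT library. Such a separation in the lower direction was seen for 1.9% of all genes. The log2 fold change was -1.85 (SE 0.58, 95% interval -3.04 to -0.65), with an unadjusted p of 0.00404 and an edgeR adjusted p of 0.591. In a fit of the OWT and YWT libraries alone it passed, with an edgeR adjusted p of 0.0170. Leaving aside fits without a single library, the alternatives put the log2 fold change of H2-DMb2 between -1.87 and -0.73. All YWT libraries belong to the unprefixed series and all OWT libraries to IB15. B cell markers were lower in OWT as well, although none passed, with Cd22 at 16.7 to 32.0 CPM in YWT and 0.669 to 7.95 CPM in OWT, and their part was not tested.

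Between genotypes, no member passed at either age. In young mice (YKO vs. YWT, 0.0267% of all genes passed), 3 members had an unadjusted p under 0.05, beside 4.59% of all genes, DESeq2 gave 0 members, and 6 of the 8 fold changes were above 0. Ciita had the lowest p, with a log2 fold change of 1.31 (SE 0.45, 95% interval 0.38 to 2.24, unadjusted p 0.00772, edgeR adjusted p 0.748), followed by H2-DMb2 at 1.22 (95% interval 0.05 to 2.39) and H2-Eb1 at 1.00 (95% interval 0.03 to 1.97). YKO3 and YKO4 lay inside the YWT range for Ciita, H2-Aa, H2-Ab1, H2-Eb1 and H2-DMb2, and without YKO1 and YKO2 the log2 fold changes of these 5 genes were between -0.32 and -0.0073.

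In old mice (OKO vs. OWT, 0.0327% of all genes passed), 1 member had an unadjusted p under 0.05, beside 8.14% of all genes, and DESeq2 gave 0 members. The log2 fold changes of the chains were -0.41 for H2-Aa (95% interval -1.15 to 0.34), -0.20 for H2-Ab1 (-0.97 to 0.58) and -0.24 for H2-Eb1 (-1.09 to 0.60). The 4 OWT libraries lay within the OKO range for each chain. H2-DMb2 at 0.03 (95% interval -1.002 to 1.06) and Ciita at -0.01 (-0.82 to 0.80) had intervals centred close to 0. H2-DMa had the lowest p, with a log2 fold change of -0.49 (95% interval -0.90 to -0.09, unadjusted p 0.0199, edgeR adjusted p 0.592). Both comparisons with OKO share its libraries, as both comparisons with YWT share theirs.

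Whether the age difference differed between genotypes was tested by the interaction. No member passed, nor did any of the 33690 genes (0%), at an adjusted p under 0.05, while 4.62% of genes had an unadjusted p under 0.05. Of the members, Ciita alone was among these (log2 interaction -1.32, 95% interval -2.53 to -0.10, unadjusted p 0.0348, edgeR adjusted p 0.811). All 8 interaction values were below 0, with H2-Eb1 at -1.24 (95% interval -2.52 to 0.04) and H2-DMb2 at -1.19 (-2.73 to 0.35). The age difference in KO is thus not shown to differ from that in WT.

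The contrast between H2-DMb1 and H2-DMb2 was followed further as the H2-DMb2 to H2-DMb1 ratio per kb of exon, a quantity chosen after the values of the 2 genes had been seen. It was 0.410, 0.471, 0.748 and 0.383 in YWT1 to YWT4 and 0.101, 0.0753, 0.236 and 0.121 in OWT1 to OWT4. In YKO1 to YKO4 it was 1.82, 2.56, 0.506 and 0.407, and in OKO its lowest, median and highest values were 0.0591, 0.106 and 0.389. Every old library was therefore below every young library of the same genotype, OKO2 being the closest to overlap. H2-DMb2 exceeded H2-DMb1 in YKO1 and YKO2 alone.

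On the log2 scale the ratio differed by -3.01 in OKO vs. YKO, 8.07-fold lower (two-sided exact permutation p = 0.00303, which is the lowest value 330 splits can give, and 0.0121 adjusted over 4 comparisons). In OWT vs. YWT it differed by -1.998 (exact permutation p = 0.0286, the lowest that 70 splits can give, adjusted 0.0572). In YKO vs. YWT the difference was 1.03 (exact permutation p = 0.229, adjusted 0.305) and in OKO vs. OWT it was 0.01 (exact permutation p = 0.985). These p-values do not account for the choice of the ratio from the same libraries. With H2-DMb1 at a log2 fold change of 0.10 in OKO vs. YKO, the ratio largely repeats the -3.04 of H2-DMb2 and is no separate result. Without YKO1 and YKO2 the difference between OKO and YKO was -1.89, over 2 YKO libraries. Of the 50-base stretches of their transcripts, 22.7% of those of H2-DMb1 and 24.8% of those of H2-DMb2 were shared with another gene, mainly the other of the pair. Reads from these stretches could be dropped or placed in either gene, so levels of the pair are uncertain to that extent. Among the other members the shared fraction was at most 0.488%.

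**Figure D4:**
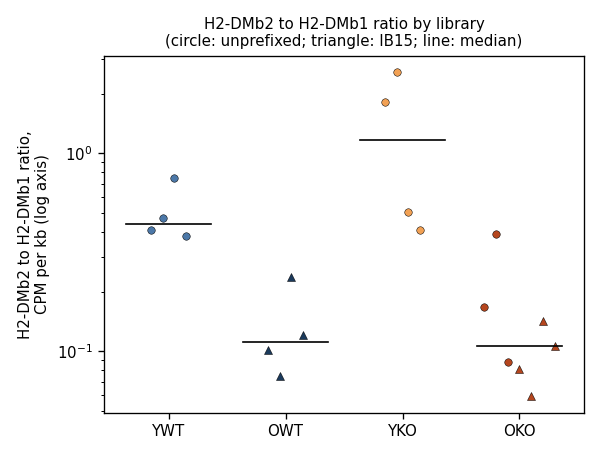
Ratio of H2-DMb2 to H2-DMb1 (CPM per kb, log axis) in each library by group, with circles for the unprefixed series, triangles for the IB15 series and lines for medians. The OWT and OKO libraries lie at 0.389 or below, and the YWT and YKO libraries at 0.383 or above.

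Across the 19 libraries, the members formed a tight set and a looser one. On log2(CPM + 1), Pearson's r was 0.98 between H2-Aa and H2-Eb1, 0.97 between H2-Ab1 and H2-Eb1, 0.92 between H2-Eb1 and Ciita and 0.92 between H2-Eb1 and H2-DMb2. For H2-DMa and H2-DMb1 it was 0.86, whereas for H2-DMb1 and H2-DMb2 it was -0.06. These values describe libraries that share groups and series. Among the 10 genes most like the mean of Cd74, H2-Aa, H2-Ab1 and H2-Eb1, among 17296 genes with a mean of at least 1 CPM and leaving out members, were Cd37, 4930523C07Rik, Traf5, Irf5, Rnf157, Mtss1, Irf8, 4930562F07Rik and BC147527, and the 10 had r from 0.874 to 0.914. Cd37, a tetraspanin of mature B cells, had r = 0.914 and a median of 106 CPM in YKO and 35.7 CPM in OKO. Traf5, an adaptor of TNF receptors, had r = 0.911, and Irf5, a factor of interferon and Toll-like receptor responses, r = 0.905. Among all ranked genes H2-DMb2 was at rank 12 and Ciita at rank 18, but H2-DMa at rank 2807 and H2-DMb1 at rank 7894.

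Cd74 kept less closely to its partners than they did to each other, with r of 0.75 with H2-Aa and 0.77 with H2-Eb1. The ratio of Cd74 to the summed chains H2-Aa, H2-Ab1 and H2-Eb1, in CPM and examined after the values had been seen, was highest in YWT2 at 3.62, OKO5 at 3.36, OKO7 at 2.81 and OWT3 at 2.78. Those 4 libraries were also among the 5 with the most Ighm, at 164540, 46391, 40650 and 45729 CPM. The remaining library of the 5, YKO1, had Ighm at 59916 CPM but a ratio of 1.39, rank 9 among the 19 libraries. The ratio was lowest in OKO3 at 0.766 and OKO1 at 0.803, the 2 libraries with the least Ighm. The part of Ighm-rich cells in Cd74 was not tested.

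Of the other class II genes, H2-Oa and H2-Ob, the chains of the H2-DM inhibitor, and H2-Eb2, a second I-E β chain gene, fell in OKO vs. YKO, 3 of the 4 listed. H2-Ob was at 93.8, 143, 31.8 and 19.9 CPM in YKO1 to YKO4 and at most 17.1 CPM in OKO, with no overlap, as for 1.48% of all genes in this direction (log2 fold change -2.80, SE 0.45, edgeR adjusted p 0.00228). H2-Oa was at 30.3, 36.4, 16.3 and 16.7 CPM in YKO1 to YKO4 and at 9.28 to 13.2 CPM in OKO, also with no overlap (log2 fold change -1.09, SE 0.21, edgeR adjusted p 0.0105). The OKO libraries of H2-Oa were below every OWT library too, at 16.96 to 23.0 CPM, which held for 0.359% of all genes, although that comparison did not pass (log2 fold change -0.72, edgeR adjusted p 0.592). H2-Eb2 had a log2 fold change of -2.24 (edgeR adjusted p 0.0234) and H2-Ea-ps, annotated as a polymorphic pseudogene, one of -0.13 (edgeR adjusted p 0.956).

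None of the 7 genes of the DNA-bound complex passed in OKO vs. YKO. Nfyb and Nfyc, subunits of the Y box factor NF-Y, had the lowest p among them, with log2 fold changes of -0.38 and -0.38 (edgeR adjusted p 0.357 and 0.383). Of 7 regulators of Ciita, Irf8 alone fell, an interferon regulatory factor of B and myeloid cells (log2 fold change -2.36, edgeR adjusted p 0.00576), while Irf1 was at 0.69 (edgeR adjusted p 0.202). Of 6 genes of antigen processing, Ifi30 fell, a thiol reductase of the endosome (log2 fold change -1.70, edgeR adjusted p 0.0328), and the protease gene Ctsl was at 0.45 (edgeR adjusted p 0.273).

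Of 3 genes that act on class II turnover at the surface 2 fell. March1, a ubiquitin ligase that removes class II from the surface, had a log2 fold change of -2.44 (edgeR adjusted p 0.0190), and Cd83, which opposes March1, one of -3.61 (edgeR adjusted p 0.0125), while March8 was at -0.35 (edgeR adjusted p 0.375). Of 4 costimulatory ligands and receptors 3 fell: Icosl (log2 fold change -2.48, edgeR adjusted p 0.00226), Cd40 (-3.07, edgeR adjusted p 0.0162) and Cd86 (-1.51, edgeR adjusted p 0.0438). Without YKO1 and YKO2 none of the genes of these 6 lists passed, while 3 of the 10 B cell markers did. In the interaction and in every comparison other than OKO vs. YKO, no gene of these lists or of the marker lists passed.

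Neighbouring genes in the class II region were compared to see whether the change followed position. From H2-Oa to H2-Ea-ps the region spans chr17:34092340-34344645, 252.3 kb with 23 counted genes, of which 21 were tested. In OKO vs. YKO 8 of them fell and none rose. Of the 11 that are no class II genes, 1 passed: BC051537, an antisense transcript that overlaps H2-Oa, whose reads cannot be told from those of H2-Oa without strand (log2 fold change -1.07, edgeR adjusted p 0.0304). Between H2-DMb1 and H2-Ob lie Psmb9 and Psmb8, subunits of the immunoproteasome, and Tap1 and Tap2, the peptide transporter of class I presentation. Their log2 fold changes were -0.04, 0.09, -0.27 and -0.02 with SEs of 0.20 to 0.28, and none passed. In the other 3 comparisons none of the 21 passed.

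**Figure D5:**
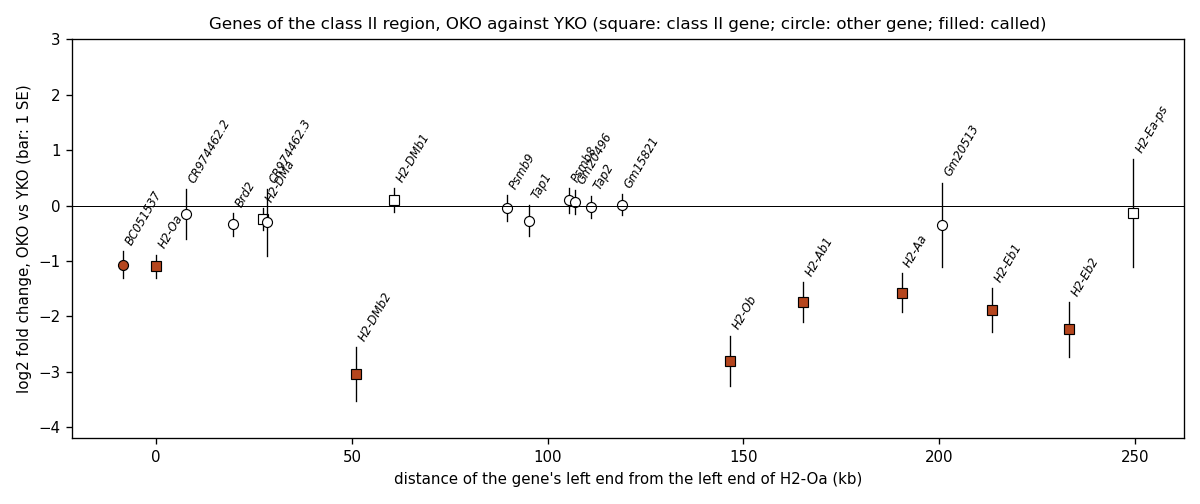
Log2 fold change in OKO vs. YKO with 1 SE (y axis) of each tested gene in the class II region against the distance of its left end from that of H2-Oa in kb (x axis); squares are class II genes, circles other genes, and filled symbols passed. H2-DMb2 at -3.04 and H2-DMb1 at 0.10 stand next to each other, and the genes around Psmb8 and Tap1 lie near 0.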

How the data were processed

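RNA was measured in 19 libraries; 10 bisulfite samples were not analysed here. Per the study's methods, the authors made SMART-Seq v4 libraries, trimmed reads (Trim Galore 0.4.3), mapped them to mm10 with STAR using GENCODE M22 and counted them per gene with featureCounts; the deposited values are raw counts per gene symbol, with no depth or length scaling. Strand and mate settings are not stated; count 2 was more frequent than count 1 in each library, so pairs may be counted as 2 reads.

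Counts were fitted with edgeR 4.0.16 (R 4.3.3): genes kept by filterByExpr, TMM normalization, 1 mean per group over all libraries, and the quasi-likelihood test with Benjamini-Hochberg adjustment over 33690 genes. A gene passed at adjusted p under 0.05 and fold over 1.5 (interaction: adjusted p alone). Confidence intervals are 95%. Positions and exon lengths come from GENCODE M21, promoters from RefSeq. The H2-DMb2 to H2-DMb1 ratio was tested by exact permutation of libraries. Steps were tested on simulated counts.

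The members and gene lists were chosen with earlier results of these data known. Named genes are all members, of each pathway list those called and the 2 lowest adjusted p in OKO vs. YKO, the 10 genes most correlated with the class II mean, and genes of the class II region; others named were chosen after their values were seen, and some genes that this rule names are not reported here. Alternatives were DESeq2 1.42.0, RLE and upper-quartile scaling, other filters, only the compared groups, library series, listed sex or replicate number in the fit, 1 series of OKO, and each library left out. Replicate numbers did not pair libraries.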

Additional observations from a re-analysis of the deposited data

Results flagged for a closer look

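One value stood apart from its group by Dixon's test: H2-DMb2 in OKO2, at 31.8 CPM, whose gap to the next OKO library was 0.65 of the range of the 7 OKO values. The test was run on 32 groups of values (8 genes in 4 groups), of which chance would flag about 1.6. Without OKO2 the log2 fold change of H2-DMb2 in OKO vs. YKO was -3.66 (edgeR adjusted p 0.000102) instead of -3.04, and in OKO vs. OWT it was -0.59 (edgeR adjusted p 0.781) instead of 0.03. OKO2 was the highest OKO library for H2-Aa, H2-Ab1, H2-Eb1 and Ciita as well.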

How the results depend on the processing

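The 5 members that passed in OKO vs. YKO were the same 5 under DESeq2, RLE or upper-quartile scaling, no filter on low counts, a filter at a mean of 5 CPM and the IB15 OKO libraries alone. Of all genes, 4.05% passed under DESeq2, 2.08% under RLE scaling, 3.2% under upper-quartile scaling and 1.18% with no filter. With the filter at 5 CPM 12.1% passed, and with the IB15 OKO libraries alone 0.815%. The number of members was 1 (H2-DMb2) when only the compared groups were fitted (0.377% of all genes), where H2-Aa, H2-Ab1, H2-Eb1 and Ciita were at -1.56, -1.73, -1.88 and -1.95. It was 2 (H2-DMb2 and Ciita) with sex as the study lists it as a covariate (0.738% of all genes), where H2-Aa, H2-Ab1 and H2-Eb1 were at -1.51, -1.65 and -1.80, and 0 without YKO1 and YKO2 (0.0542% of all genes), an alternative chosen after seeing the data; in that fit H2-DMb2 was at -1.49 (edgeR adjusted p 0.290). The listed sex disagreed with the Y-linked genes in 3 of the 15 libraries listed. With single libraries left out the count ranged from 1 to 6, with 1 without YKO1 and 1 without YKO2, and H2-Aa did not pass without OKO3, OKO4 or OKO6 (edgeR adjusted p 0.0515 to 0.0564). With the library series as a covariate 6 passed, among 6420 genes in all (19.1%). The median log2 fold change of all genes in OKO vs. YKO was 0.23 under TMM, 0.31 under RLE and 0.43 under upper-quartile scaling. In OWT vs. YWT 1 member passed when only the compared groups were fitted, beside 0.158% of all genes. The counts of 0 in YKO vs. YWT, OKO vs. OWT and the interaction did not change under any alternative run, DESeq2 included.

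Replicate numbers did not pair the libraries: of 24 pairs of libraries with the same number, 2 had deviations from the group means that correlated above 0.1 (range -0.45 to 0.277), and none of the 16 libraries with a partner correlated best with its own number. With the replicate block, 6 members passed in OKO vs. YKO, Cd74 (-2.24, edgeR adjusted p 0.0357) in addition to the 5, among 1774 genes in all (5.27%), and 0 in each other comparison.

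Signs changed only for members that had not passed. In YKO vs. YWT without YKO1 and YKO2 the log2 fold changes were -0.89 for Cd74, -0.040 for H2-Aa, -0.13 for H2-Ab1, -0.0073 for H2-Eb1, -0.32 for H2-DMb2 and -0.017 for Ciita, and H2-DMa was at 0.0224 to 0.0225 under DESeq2, RLE and upper-quartile scaling. In OKO vs. OWT, Ciita was at 0.12 under DESeq2 and RLE, 0.27 under upper-quartile scaling, 0.056 without a filter, 0.31 with the filter at 5 CPM, 0.11 with only the compared groups, 0.28 with the unprefixed OKO libraries and 0.24 with the replicate block. H2-DMb2 was at -0.56 with the library series, -0.53 with the IB15 OKO libraries and -0.052 with the replicate block. H2-Ab1 was at 0.039 and H2-Eb1 at 0.036 with the filter at 5 CPM, 0.010 and 0.0011 under upper-quartile scaling, and H2-Eb1 was at 0.082 with the unprefixed OKO libraries. In OWT vs. YWT, H2-DMa was at -0.091 and H2-DMb1 at -0.035 with the library series. In OKO vs. YKO, H2-DMb1 was at -0.073 with the library series and -0.011 with the unprefixed OKO libraries. With single libraries left out, Cd74 ranged from -1.14 to 0.0084 in OWT vs. YWT and from -0.21 to 1.22 in YKO vs. YWT, Ciita from -0.24 to 0.13 and H2-DMb2 from -0.59 to 0.17 in OKO vs. OWT, and H2-DMa from -0.075 to 0.022 in YKO vs. YWT. The causes were not tested.

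The log2 difference of the H2-DMb2 to H2-DMb1 ratio was -2.47 in OKO vs. YKO with the unprefixed OKO libraries (exact permutation p = 0.0571), -0.40 in OKO vs. OWT with the IB15 OKO libraries and -0.0956 in YKO vs. YWT without YKO1 and YKO2. With single libraries left out it ranged from -3.44 to -2.56 in OKO vs. YKO, from -2.32 to -1.77 in OWT vs. YWT, where the exact permutation p was 0.0571 without any 1 YWT library, and from -0.26 to 0.33 in OKO vs. OWT.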
